A study of Homo sapiens with 4 samples.

Results

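ATP-binding cassette (ABC) genes were taken by symbol, as each gene of the library named ABCA to ABCG and a number. They were 45 of 19112 gene symbols in the sgRNA count table, with 4 sgRNAs each, or 180 of 76441 targeting sgRNAs. The rule used names alone, although earlier results of these data were known when it was set. CFTR, TAP1 and TAP2 also encode ABC proteins, but their symbols fall outside the rule and they are described apart. ABCE1 and the ABCF genes carry the family name and its ATP-binding domains but encode no membrane domain. These 4 of the 45 are therefore ABC proteins and not transporters. ABCC8 and ABCC9, also among the 45, encode sulfonylurea receptors, which are subunits of ATP-sensitive potassium channels.

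A549 cells, a human lung adenocarcinoma line, carried the Brunello lentiviral library, a pool of sgRNAs that each guide Cas9 to a single gene, so that the abundance of an sgRNA tracks the growth of the knockout. After puromycin selection, the HQ461 cultures were kept in 4 µM of the compound and the DMSO cultures in 0.1% of the vehicle, for 3 weeks. HQ461 is a cytotoxic small molecule that the submitters describe as a glue between CDK12 and DDB1. The labels name 2 samples in each condition, but the deposited table holds 1 column per condition. No spread between cultures could therefore be measured, no p-value is given, and each difference compares the HQ461 column with the DMSO column. Counts of sgRNAs in genomic DNA hold no expression, so neither the A549 label nor the presence of any transporter in these cells could be checked.

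ABC transporters bind ATP at a pair of nucleotide-binding domains and use its hydrolysis to move substrates across membranes. Several of them, above all ABCB1 (P-glycoprotein), ABCC1 (MRP1) and ABCG2 (BCRP), export drugs from cells and are known for multidrug resistance in tumours. Loss of a pump that exports a toxic compound would be expected to sensitize cells, and loss of a carrier that imports it to protect them. Other members move sterols and phospholipids, bile salts, or fatty acyl-CoA into peroxisomes. A549 carries an inactivating KEAP1 mutation, which raises NRF2 activity, and several MRP genes are known NRF2 targets. The comparison asked whether sgRNAs against ABC genes became more or less abundant with HQ461 than with DMSO.

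The HQ461 column held 16127620 reads and the DMSO column 14428845. The sgRNAs of the ABC genes made up 0.252% of reads with HQ461 and 0.227% with DMSO. The exact Clopper-Pearson 95% intervals of these shares were 0.249% to 0.254% with HQ461 and 0.225% to 0.229% with DMSO. They cover the counting error of reads only. PCR reads are not independent molecules, so the intervals do not cover the sampling of molecules or cells. A single ABCC9 sgRNA supplied 12.8% of the ABC reads with HQ461. Without it the share was 0.219% with HQ461 and 0.225% with DMSO. These are shares of total reads, a scale other than that of the size factors below, so they do not give the direction of the scaled values. The median ABC sgRNA had 116.5 reads with HQ461 and 161 with DMSO, close to 110 and 152 for all targeting sgRNAs. Counts were divided by a size factor of 0.833 for HQ461 and 1.20 for DMSO, so that the median sgRNA did not change. Normalized counts are given below unless reads are named, with the sgRNAs of a gene in the same order for both conditions.

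As a group, the ABC genes stayed near the rest of the library. The value of a gene is the median log2 fold change of its sgRNAs, HQ461 over DMSO, computed after adding 1 to the normalized counts. The median gene value was 0.09 over the 45 ABC genes and -0.02 over 19111 genes of the library, with SDs across genes of 0.81 and 0.80. The gene value was above 0 for 23 ABC genes (51.1%, against 48.7% of all genes) and below 0 for 22. It was at least 2-fold higher with HQ461 for 4 genes, among them ABCA9, ABCC3 and ABCC11, or 8.89% of the family, where 9.01% of all genes passed the same mark. It was at least 2-fold lower for 3 genes, ABCC10, ABCE1 and ABCG2, or 6.67%, against 7.69% of all genes. Both shares were near the background. Scaling by total counts shifted the median gene of the library by -0.68, which left ABCA9 as the 1 raised ABC gene and 14 ABC genes lowered, where 2.72% and 32.1% of all genes passed, so each value here is relative to the median sgRNA. Under that scaling ABCC3 was at 0.87 and ABCC11 at 0.84. The ABC gene nearest below the upper mark was ABCB1 at 0.94 and the gene nearest above the lower mark was ABCB4 at -0.92. ABCB4 was at -0.37 with a minimum of 30 normalized counts with DMSO and at 0.05 as summed reads. For scale, the highest gene of the whole library reached 10.49.

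**Figure D1:**
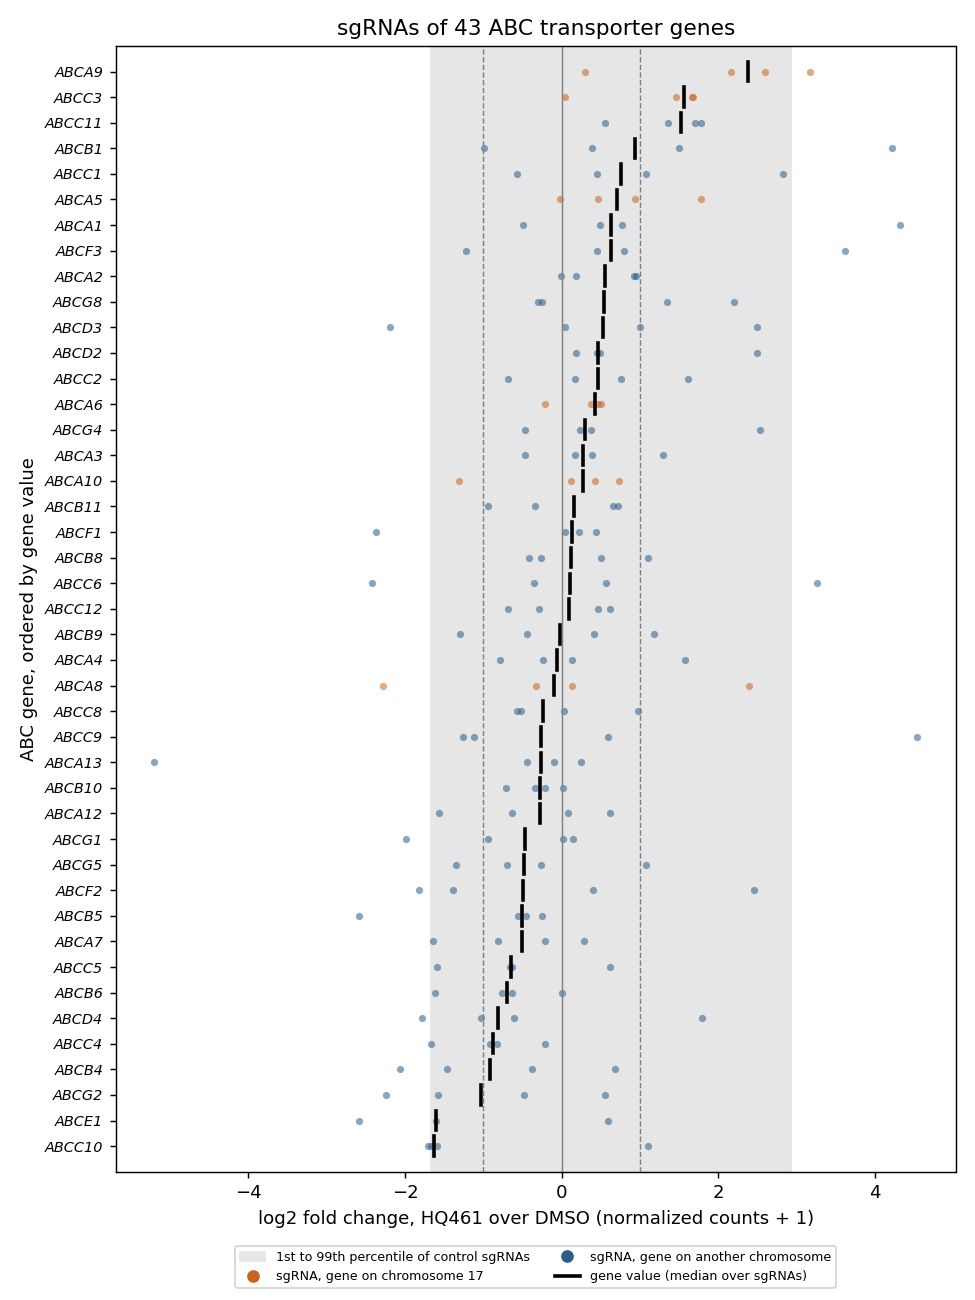
Log2 fold change, HQ461 over DMSO, of each sgRNA (points) of 43 ABC genes, which run down the vertical axis by gene value (black bars). The grey band spans the 1st to 99th percentile of non-targeting controls (-1.67 to 2.92), dashed lines mark 2-fold, and genes of chromosome 17 are orange. All but 6 of these gene values lie between the dashed lines.

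Agreement between sgRNAs of a gene was also that of the library at large. The distance from the lowest to the highest sgRNA of a gene had a median of 2.33 on the log2 scale over ABC genes, against 2.13 over 19107 genes with at least 2 sgRNAs. It ran from 0.72 for ABCA6 to 5.79 for ABCC9. All sgRNAs lay above 0 for 5 ABC genes, among them ABCA9, ABCC3, ABCC11 and ABCD2, or 11.1% against 10.3% of all genes. All lay below 0 for 3, among them ABCB5 and ABCC4, or 6.67% against 9.18%. In 10 ABC genes 1 sgRNA was at least 2-fold higher while another was at least 2-fold lower, which is 22.2% of them against 21.8% of all genes. At least 3 sgRNAs were at least 2-fold higher for ABCA9, ABCC3 and ABCC11 (6.67% against 5.2%), and at least 3 were at least 2-fold lower for ABCC10 alone (2.22% against 3.74%).

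Among the efflux pumps known for drug resistance, sgRNAs of ABCB1 were spread over both directions. ABCB1 (P-glycoprotein, chromosome 7, 87503017 to 87713323 on GRCh38) exports a broad range of hydrophobic drugs. Its sgRNAs had 1813, 278, 409 and 60.0 counts with HQ461, against 96.6, 98.3, 314 and 121 with DMSO. In order, the first 3 had log2 fold changes of 4.22, 1.49 and 0.38 and the last was just short of 2-fold lower, so 1 sgRNA carried most of the reads and another was lower. The gene value of 0.94 lay under the 2-fold mark, while the summed reads of the gene, 2133 with HQ461 and 756 with DMSO, gave 2.02. The mean over its sgRNAs instead of their median put ABCB1 past the mark.

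ABCC1 (MRP1, chromosome 16, 15949138 to 16143257), which exports glutathione conjugates and several drugs, had the same form. Its sgRNAs had 1703, 612, 466 and 55.2 counts with HQ461, against 239, 291, 342 and 82.5 with DMSO. The gene value was 0.76, with sgRNAs from -0.57 to 2.83, while the summed reads gave 1.57, past the mark. ABCG2 (BCRP, chromosome 4, 88090150 to 88231628) instead lay at the lower mark. Its sgRNAs had 382, 197, 131 and 25.2 counts with HQ461, against 261, 276, 392 and 123 with DMSO. Of these, 1 was higher and 3 lower, and the gene value of -1.03 was 2.04-fold lower with HQ461. ABCG2 did not reach the mark when counts were scaled by non-targeting controls, as a mean over sgRNAs or as summed reads, where its values ranged up to -0.52.

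The multidrug pumps as a list held 9 genes. Of these, 2 were at least 2-fold higher and 2 at least 2-fold lower, or 22.2% each way, against 9.01% and 7.69% of all genes. These shares rest on 2 genes each way in a short list, and their distance from the background was not tested. ABCC3, 1 of the raised genes, lies on chromosome 17, where 49% of genes passed. ABCB5, ABCC6 and ABCC12 were not in this list and lay within 2-fold. The list had a median gene value of 0.46, with 5 genes above 0 (55.6%, against 48.7% of all genes). It ran from -1.63 for ABCC10 to 1.56 for ABCC3. ABCC10 (MRP7), a pump that can export taxanes, was the lowest of the 45 ABC genes. Its sgRNAs had 122, 34.8, 21.6 and 32.4 counts with HQ461, against 56.6, 107, 70.8 and 108 with DMSO. Among them 3, with log2 fold changes of -1.60, -1.67 and -1.71, lay close together and were lower, while the other was higher at 1.10. The median was 3.10-fold lower with HQ461, and the mark was missed as a mean over sgRNAs and as summed reads, the second at -0.70. ABCC4 (MRP4), which exports cyclic nucleotides, had all 4 sgRNAs below 0, from -1.67 to -0.22, with a gene value of -0.87. ABCC5 (MRP5), at -0.65, and ABCC2 (MRP2), at 0.46, lay within 2-fold.

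ABCC3 (MRP3) and ABCC11 (MRP8) were the raised pumps. ABCC3, which exports bile salts and glucuronides, had sgRNAs with 527, 286, 646 and 48.0 counts with HQ461, against 165, 90.0, 235 and 46.7 with DMSO. The first 3 were higher by 1.67, 1.66 and 1.46 on the log2 scale and the last was level, for a gene value of 1.56. ABCC3 lies on chromosome 17 (50634777 to 50692253), where other genes within 5 Mb had a median gene value of 1.20. ABCC11, which exports lipophilic anions and is known for its role in apocrine glands, had 317, 278, 611 and 385 counts with HQ461, against 91.6, 85.0, 239 and 262 with DMSO. All 4 of its sgRNAs were higher, from 0.55 to 1.78, with a gene value of 1.53, or 2.88-fold. It lies on chromosome 16 (48165773 to 48247568), where 27 other genes within 5 Mb had a median of -0.03. Its neighbour ABCC12, in the same family, had a gene value of 0.09 with 2 sgRNAs above 0 and 2 below.

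The 6 ABC genes of chromosome 17 lay among raised genes, since 978 of the 1076 other genes of this chromosome had a gene value above 0. ABCA5, ABCA6, ABCA8, ABCA9 and ABCA10 form a tandem cluster of full-size ABCA genes, spanning 68867289 to 69327244 from the start of ABCA8 to the end of ABCA5, and ABCC3 lies apart from them. The 6 genes had a median gene value of 0.56, while those other genes had a median of 0.97. At least 2-fold higher values were found for 2 of the 6, ABCA9 and ABCC3, where 49% of the genes of this chromosome passed. Relative to their own neighbours within 5 Mb, whose medians ran from 0.79 to 1.20, 2 of the 6 were higher and 4 lower. The 39 ABC genes of other chromosomes had a median of -0.06, as did the 18029 genes not placed on chromosome 17. The 18029 include the 39 themselves and genes without a position, of which the library held 398. Of these 39, 2 were at least 2-fold higher (5.13% against 6.61%) and 3 at least 2-fold lower (7.69% against 8.04%).

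ABCA9, a member of this cluster whose substrate is not well defined, had the highest value of the 45 genes. Its sgRNAs had 682, 1017, 300.1 and 97.2 counts with HQ461, against 75.0, 168, 66.6 and 79.1 with DMSO. Of the 4, 3 were higher by 3.17, 2.59 and 2.15 on the log2 scale and 1 by 0.29. The gene value of 2.37, or 5.17-fold, was above 99.2% of the genes of the library at rank 148, while 45 other genes within 5 Mb had a median of 0.89. In summed reads, ABCA9 had 1746 with HQ461 and 467 with DMSO, a log2 ratio of 2.43 after scaling (95% exact interval 2.28 to 2.58, counting error only). The 4 adjacent genes had values below that of ABCA9. ABCA5 was at 0.70, ABCA6 at 0.42, ABCA10 at 0.28 and ABCA8 at -0.09. ABCA8 alone of the cluster spanned both directions beyond 2-fold, with 1 sgRNA at 420 counts with HQ461 and 79.1 with DMSO, and another at 10.8 with HQ461 and 56.6 with DMSO.

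**Figure D2:**
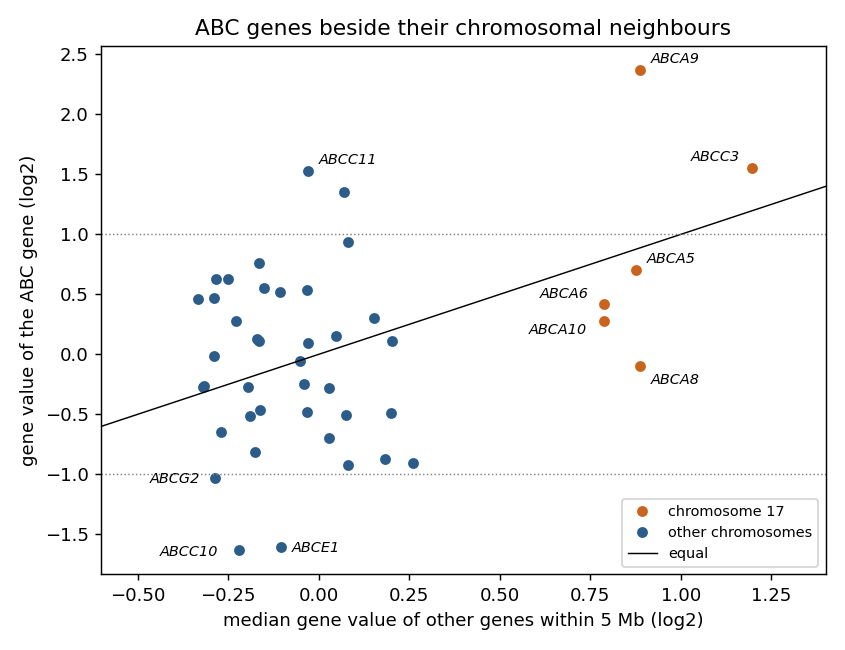
Gene value of each ABC gene (vertical axis, log2) against the median gene value of the other genes within 5 Mb (horizontal axis, log2), with the line of equality and dotted lines at 2-fold. The 6 genes of chromosome 17 (orange) have raised neighbours, from 0.79 to 1.20, whereas neighbours of the other 39 run from -0.33 to 0.26.

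The ABCD subfamily holds peroxisomal and lysosomal transporters. ABCD2, an importer of very long chain fatty acyl-CoA, had all 4 sgRNAs above 0 and a gene value of 0.47, with 3 of them between 0.18 and 0.48 and 1 at 2.49. ABCD3, a peroxisomal transporter of branched-chain acyl-CoA and bile acid intermediates, was at 0.52 with sgRNAs from -2.19 to 2.49. ABCD4, which acts in lysosomal cobalamin export, was at -0.82.

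Among the ABC proteins without membrane domains, ABCE1 and ABCF1 had low counts in both columns. ABCE1 recycles ribosomes after termination and ABCF1 takes part in translation initiation, and both are essential for growth of many human cell lines. They were among the 3 ABC genes (6.67%) in the lowest 5% of genes by median reads with DMSO, where 4.99% of all genes fall. The median was 9 reads for ABCE1 and 6.5 for ABCF1. The starting abundance of these sgRNAs was not analysed here, so loss before or during the DMSO culture cannot be told apart from low representation in the library.

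ABCE1 passed the lower mark on very few reads. Its sgRNAs had 13, 4, 0 and 0 reads with HQ461, against 12, 20, 6 and 0 with DMSO. The gene value of -1.61 was that of the sgRNA with 4 and 20 reads, whose log2 ratio was -1.79 with a counting interval from -3.80 to -0.22. With counts of 0 in 1 column set to 3 reads, the limit that a count of 0 allows, ABCE1 was at -0.38. It also left the mark with a pseudocount of 5 and as summed reads, and it had no sgRNA with 30 normalized counts with DMSO. ABCF1 had 51, 5, 5 and 0 reads with HQ461 and 54, 6, 7 and 5 with DMSO, and its gene value was 0.13. In summed reads ABCE1 had a log2 ratio of -0.61 (counting interval -1.55 to 0.23) and ABCF1 one of 0.28 (-0.23 to 0.80). Both intervals held 0, so the summed reads gave no direction for either gene. These intervals cover the counting of reads alone and hold no spread between cultures.

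ABCF2 and ABCF3 had ample counts. ABCF3 had 1653, 615, 242 and 98.4 counts with HQ461, against 134, 354, 177 and 231 with DMSO, for a gene value of 0.62. ABCF2 had 359, 184, 58.8 and 30.0 counts with HQ461, against 65.0, 139, 155 and 108 with DMSO, for a gene value of -0.49. In both genes the sgRNAs disagreed in direction by more than 2-fold on either side of 0. Summed reads put ABCF3 past the mark at 1.54 and turned ABCF2 to 0.43.

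**Figure D3:**
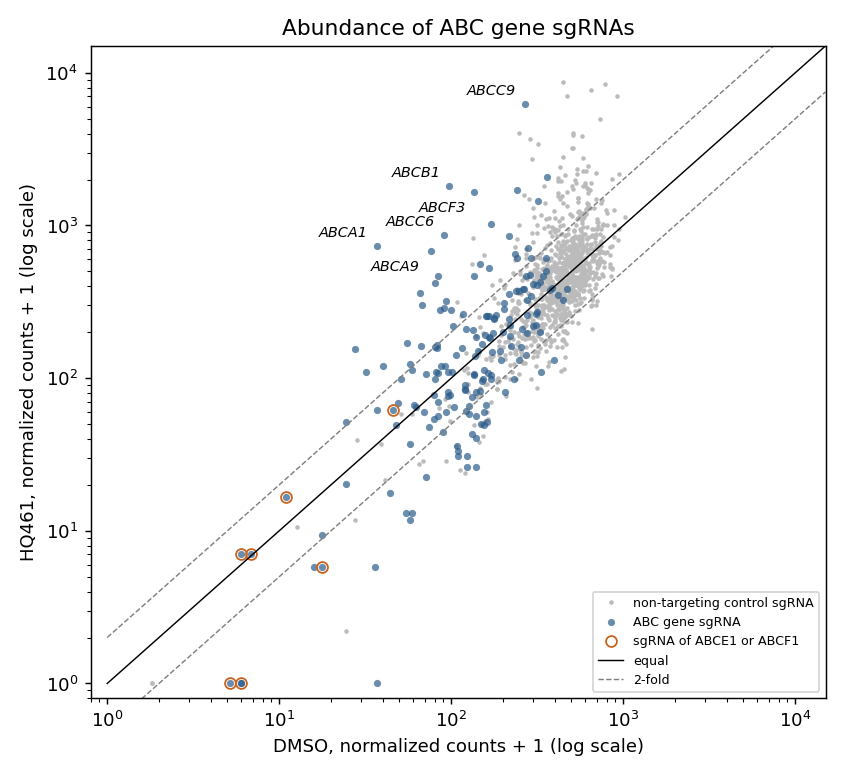
Normalized counts with HQ461 (vertical axis, log scale) against DMSO (horizontal axis, log scale) for each ABC gene sgRNA (blue) and each non-targeting control (grey), with 1 added, the line of equality and dashed lines at 2-fold. The 6 named sgRNAs lie above the 99th percentile of controls. The sgRNAs of ABCE1 and ABCF1 (circled) lie at the low end of both axes, except the ABCF1 sgRNA with 61.2 counts with HQ461 and 45.0 with DMSO.

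The highest single sgRNAs of the family were spread over several genes. Past the 99th percentile of controls lay 6 of 178 ABC sgRNAs, or 3.37%, against 2.44% of all targeting sgRNAs. Each belonged to a different gene, ABCA1, ABCA9, ABCB1, ABCC6, ABCC9 or ABCF3, and these 6 genes are 13.3% of the family, against 8.82% of all genes with such an sgRNA. In no ABC gene did all sgRNAs lie there, as they did for 0.068% of genes. Below the 1st percentile of controls lay 15 ABC sgRNAs, or 8.43% against 7.53%. Controls had a median of 368 reads with HQ461 and 525 with DMSO, more than the ABC sgRNAs, and no comparison was made at matched reads. Summed reads, which weigh the most abundant sgRNA of a gene most, put ABCA1, ABCB1, ABCC1, ABCC6, ABCC9, ABCF3, ABCG4 and ABCG8 past the upper mark, where 18.1% of all genes passed it.

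ABCC9, the SUR2 subunit of ATP-sensitive potassium channels, had the highest of these sgRNAs. Its sgRNAs had 6257, 373, 57.6 and 66.0 counts with HQ461, against 268, 248, 127 and 159 with DMSO. The first was 4.54 higher on the log2 scale and 2 others lower by more than 2-fold, so that the gene value was -0.27 while the summed reads gave 3.07. ABCC8, the SUR1 subunit, was at -0.25. ABCA1, the cholesterol exporter that forms high-density lipoprotein, had 736, 208, 248 and 84.0 counts with HQ461, against 35.8, 122, 177 and 119 with DMSO, for a gene value of 0.63. ABCC6, an exporter whose loss causes pseudoxanthoma elasticum, had 869, 106, 106 and 25.2 counts with HQ461, against 90.0, 70.8, 135 and 139 with DMSO. Its gene value was 0.11, and part of ABCC6 is shared with nearby pseudogenes. The lowest single value was from ABCA13, where 1 sgRNA had 0 reads with HQ461 and 43 with DMSO. With the 0 set to a limit of 3 reads and the 43 reads taken as exact, this sgRNA was 9.95-fold lower. The upper end of its counting interval was -2.95 on the log2 scale, a smaller drop than that. The other 3 ABCA13 sgRNAs ran from -0.44 to 0.25.

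Of the 11 lipid and sterol transporters outside the chromosome 17 cluster, 0 were past the upper and 0 past the lower mark, beside 9.01% and 7.69% of all genes, rates at which few of 11 would pass. The list ran from -0.92 for ABCB4 to 0.63 for ABCA1, with a median of -0.06. In it 5 genes lay above 0 (45.5%, against 48.7% of all genes). ABCA3, which loads surfactant lipid into lamellar bodies of alveolar type II cells, had 162, 119, 244 and 223 counts with HQ461, against 65.8, 90.8, 217 and 309 with DMSO. Its gene value was 0.28, and its 1 sgRNA that was higher by over 2-fold stood beside 1 that was lower. ABCA2, a transporter of endosomes and lysosomes, was at 0.55, the retinal ABCA4 at -0.06, ABCA7 at -0.51, ABCA12, which serves the lipid barrier of skin, at -0.28, and ABCG1, a cholesterol exporter, at -0.46. ABCG5 and ABCG8 form 1 heterodimer that exports sterols, and lie beside each other on chromosome 2. ABCG5 was at -0.48, with sgRNAs from -1.34 to 1.08, and ABCG8 at 0.54, with sgRNAs from -0.30 to 2.19, so the 2 sets overlapped. ABCB4, the phosphatidylcholine floppase of bile, lies beside ABCB1 on chromosome 7. Its sgRNAs had 254, 103, 4.80 and 12.0 counts with HQ461, against 158, 134, 15.0 and 53.3 with DMSO, and its sgRNAs overlapped in range with those of ABCB1. ABCB11, the bile salt export pump, was at 0.16. Among the remaining ABCB genes, ABCB6, a porphyrin transporter, was at -0.70 and ABCB5 at -0.51. ABCB9, a lysosomal peptide transporter, was at -0.02, and the mitochondrial ABCB10 and ABCB8 were at -0.27 and 0.12.

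Read by subfamily, the median gene value was 0.28 for the 12 ABCA genes, -0.27 for the 9 ABCB genes, 0.09 for the 11 ABCC genes and -0.46 for the 5 ABCG genes. Each of these subfamilies held genes on both sides of 0. Of the 12 ABCA genes, 5 form the cluster on chromosome 17, where the other genes had a median of 0.97. No subfamily median was computed without the genes of chromosome 17. ABCG4 and ABCG8 were the ABCG genes above 0, at 0.30 and 0.54. ABCG4, on chromosome 11, had most of its reads from 1 sgRNA with 2077 counts with HQ461 and 359 with DMSO.

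None of the 3 ABC proteins under other symbols passed a mark. TAP1 was at 0.22, CFTR at -0.04 and TAP2, the partner of TAP1 in peptide import to the endoplasmic reticulum, at -0.74. Carriers of organic ions and drugs were taken as a further list of 37 SLCO, SLC22 and SLC47 genes, many of them known for uptake, whereas the SLC47 genes act in proton-coupled export of organic cations. Their median was 0.24, with 5 genes (13.5%) at least 2-fold higher and 0 at least 2-fold lower, beside the background of 9.01% and 7.69%. SLC22A8 (OAT3), on chromosome 11, was highest at 2.18 and SLCO4A1 next at 1.76, while SLC22A13 at -0.66 and SLCO1C1 at -0.57 were lowest. The 11 carrier genes on chromosome 11 had a median of 0.51, with 3 (27.3%) at least 2-fold higher. No background was computed for chromosome 11 as a whole, so this share has no like share to stand beside. The 2 on chromosome 17, both of them SLC47 genes, had a median of 1.13. Of these, 1 was at least 2-fold higher, on a chromosome where 49% of genes passed. Without the SLC47 genes the list of 35 had a median of 0.22, with 4 (11.4%) at least 2-fold higher. The 24 carriers elsewhere had a median of 0.04, with 1 (4.17%) at least 2-fold higher. Of the genes not placed on chromosome 17, 6.61% passed this mark. The ABC genes had 2 members on chromosome 11, ABCC8 and ABCG4, both within 2-fold.

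**Figure D4:**
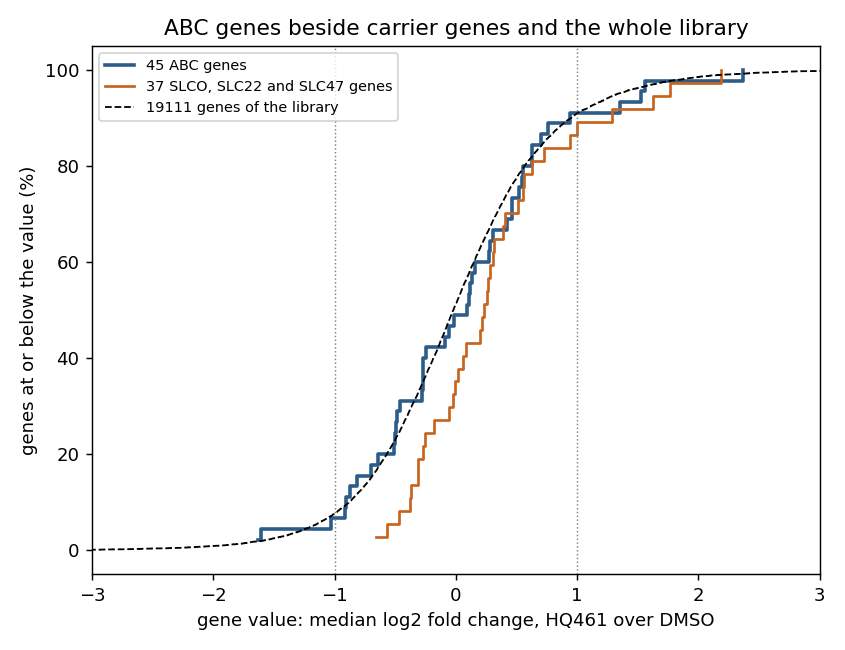
Share of genes (vertical axis, %) at or below each gene value (horizontal axis, median log2 fold change, HQ461 over DMSO) for 45 ABC genes, 37 carrier genes and 19111 genes of the library, with dotted lines at 2-fold. The curve of the ABC genes follows that of the library, with medians of 0.09 and -0.02. The curve of the carriers lies to the right of them over most of its range, with a median of 0.24. The 24 carriers outside chromosomes 11 and 17, not drawn apart, had a median of 0.04.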

How the data were processed

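Raw read counts per sgRNA were made by the authors with MAGeCK 0.5.9.2 and deposited without normalization, in 1 column for HQ461 and 1 for DMSO. The way in which 2 samples per condition became 1 column was not given in the sources. Both columns were read as pooled values of their condition. Here, 273 sgRNAs at 0 in both columns were left out, size factors were median ratios, and the log2 fold change used a pseudocount of 1. A gene value is the median over its sgRNAs, and a mark of 2-fold replaced a test, because without a replicate column neither edgeR's test nor MAGeCK's ranking would hold the spread between cultures. The code was tested on simulated data. The ABC members are named, except that results for 2 of them are counted in the totals but not reported here. Members and lists were chosen with earlier results of these data known. Positions came from GENCODE 44 on GRCh38. Python 3.11.15, numpy 2.4.6, scipy 1.17.1, pandas 2.3.3 and edgeR 4.0.16 (for TMM factors) were used. Alternatives covered scaling, filters, the pseudocount, the gene summary and the mark. Guide sequences were not used here.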

Additional observations from a re-analysis of the deposited data

How the results depend on the processing

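No paired analysis was possible because each condition has a single column, and for that reason the replicate block and leaving out a replicate were not run. Of the 11 alternatives (setting counts of 0 to 3 was chosen after seeing the data), 10 used the 2-fold mark. In these ABCA9 kept its call in 10, ABCC3 and ABCC11 in 9, ABCC10 in 8, ABCG2 in 7 and ABCE1 in 5 of the 9 that gave it a value. Total counts shifted all gene values by a median of -0.68, which left 1 gene raised and 14 lowered, with medians of -0.59 for all ABC genes, -0.12 for those on chromosome 17 and -0.74 for the others. Under that scaling 32.1% of all genes were lowered 2-fold and 2.72% raised. With TMM factors the median was 0.062 for all ABC genes and -0.083 off chromosome 17, with control scaling 0.13 and -0.016, with a mean over sgRNAs 0.021 and -0.021, and with the minimum of 30 counts 0.068 for all ABC genes. Summed counts gave 12 raised and 0 lowered genes, with medians of 0.33, 0.86 on chromosome 17 and 0.16 off it (18.1% and 3.68% of all genes). Leaving out the highest sgRNA per gene gave 3 raised and 8 lowered genes and medians of -0.32, 0.42 on chromosome 17 and -0.35 off it, with 5.21% of all genes raised and 17.4% lowered. A mark of 1.5-fold gave 9 genes in each direction (19.3% and 19.4% of all genes). The cause of the other shifts was not tested. Few reads limit ABCE1 and ABCF1, and 12 ABC sgRNAs were under 30 normalized counts with DMSO.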
